A study of Mus musculus with 20 samples.

Results

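Of the 120 mouse probes on the Sterolgene V1 array, 38 were too thinly measured in at least 1 genotype for a test across the whole series, and these 38 probes are described here. Each probe was printed as 3 spots per array. A probe was chosen when, in at least 1 of the 4 genotypes, fewer than 3 arrays held a spot of it that the scanning software had not flagged. The flags therefore chose the probes, and the numbers of measured arrays and the signals above background are given as descriptions, with no test. The probes are known only by identifier, written here as Mm069 and so on. No table pairing identifiers with genes was used, so neither a gene name, a role nor a sequence can be given for any of them.

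The series followed the liver response of male C57BL/6J mice aged 9 to 12 weeks to TCPOBOP. Mice received 10 mg/kg TCPOBOP by intraperitoneal injection and livers were taken 12 h later. Of the 20 arrays, 6 held livers of wild type mice (WT), 6 of mice lacking CAR (CARKO), 4 of mice lacking PXR (PXRKO) and 4 of mice lacking both receptors (CARPXRKO). On each array 1 treated liver, labelled with Cy5, was hybridized against a Cy3-labelled pool of 6 livers of the same genotype. The pooled livers had received vehicle, 5% DMSO in corn oil. For WT 3, WT 5, CARKO 3 and CARPXRKO 3 the protocol text describes vehicle for the treated channel instead. The labels of the CARPXRKO 3 pool also conflict on its genotype. Titles were followed for all of them. Each genotype had 1 pool, which counts as 1 control sample, so the spread among control animals is left out of every test. The dyes were not swapped. Whole liver was used, so fewer cells of a type and less RNA per cell cannot be told apart. How the knockout alleles were made is not given in the sources used here.

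As background, CAR (the constitutive androstane receptor) and PXR (the pregnane X receptor) are nuclear receptors of hepatocytes that sense foreign compounds and switch on cytochrome P450 enzymes, conjugating enzymes and transporters. TCPOBOP is a strong agonist of mouse CAR. Both receptors also bear on cholesterol and bile acid metabolism, the pathways for which this array was designed.

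The choice rested mainly on the WT and PXRKO arrays. In WT 27 of the 38 probes had fewer than 3 measured arrays, in PXRKO 28, in CARPXRKO 10 and in CARKO 6. No array at all was measured for 7 of the probes in WT and for 14 in PXRKO, while in CARKO and CARPXRKO each probe had at least 1. The lowest number of measured arrays over the 4 genotypes was 0 for 17 probes, 1 for 7 and 2 for 14. Just outside the limit, 9 probes had 3 measured arrays in their scarcest genotype, which was PXRKO for all 9 and also CARPXRKO for 1 of them, and 73 had 4 or more. The 38 probes lay evenly in both blocks of the array, 19 in each.

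Flagging itself differed between arrays. Between 0 and 247 spots were flagged per array (median 146.5), and between 7 and 38 of the 38 probes had a value (median 19.5). CARKO 3, CARKO 4 and CARPXRKO 1 had no flagged spot at all, so every one of the 38 probes has a value there. These 3 arrays gave 114 of the 420 values, and Mm117, Mm140 and Mm142 were measured nowhere else. Without them the same rule takes 42 probes. The local background beside the spots of the 38 probes was 0.944 to 1.01 times that beside the other mouse spots in Cy5, and 0.947 to 1 times in Cy3. Saturated pixels occurred on 4 of their 2280 spots. Among arrays where all 3 spots of a probe counted, the median SD between the spots was 0.18 on the log2 scale for the 38 probes and 0.11 for the other 82.

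**Figure D1:**
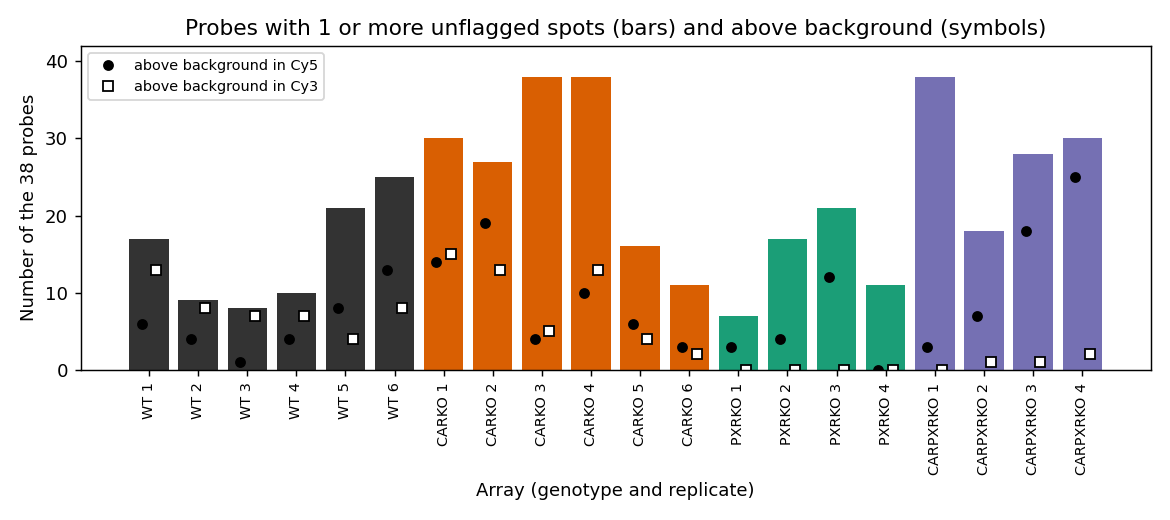
For each of the 20 arrays (x axis), the bar gives how many of the 38 probes had at least 1 unflagged spot, the filled circle how many were above background in Cy5 (treated liver) and the open square how many were above background in Cy3 (vehicle pool). The bars reach all 38 probes on CARKO 3, CARKO 4 and CARPXRKO 1, and the Cy3 symbols lie at 0 on all 4 PXRKO arrays.

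The call of a spot as above background asked for a median foreground higher than the local background plus 2 of its SDs. At least 2 of the 3 spots of a probe had to pass, and flagged spots were judged alike. In the pools (Cy3), at least 1 array showed 15 of the 38 probes above background in WT and 18 in CARKO, against 3 in CARPXRKO and 0 in PXRKO. In the treated livers (Cy5) the numbers were 14 in WT, 20 in CARKO, 13 in PXRKO and 27 in CARPXRKO. Of the other 82 probes, 79, 82, 82 and 82 were above background in Cy5 on at least 1 array of these genotypes, and 81, 80, 69 and 72 in Cy3. On most arrays of a genotype, fewer probes were above background. In Cy5 these were 4 in WT, 6 in CARKO, 2 in PXRKO and 6 in CARPXRKO, and in Cy3 they were 7, 5, 0 and 0. Of the other 82 probes, 56, 76, 72 and 73 were above background in Cy5 on most arrays of these genotypes. In Cy3 they too showed fewer in the last 2 genotypes, with 73 above background on most WT arrays, 75 in CARKO, 53 in PXRKO and 55 in CARPXRKO.

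The noise of the Cy3 background was also higher in the genotypes where fewer probes were seen. Its SD, as the median over mouse spots, ranged over the WT arrays from 77 to 159 intensity units and over the CARKO arrays from 54 to 120. The ranges for PXRKO and CARPXRKO were 133 to 167 and 114 to 196. The part of this noise in the detection counts was not tested, and genotype, pool and scan cannot be told apart in Cy3, since each genotype had a single pool. In intensity units the median Cy3 signal of the 38 probes over local background was 54 to 127 over the WT arrays and 32 to 114 over the CARKO arrays. It was 39.5 to 97.5 for PXRKO and 15 to 136.5 for CARPXRKO, so these ranges overlapped. Of the flagged spots of the 38 probes, 26 of 1258 (2.07%) were above background in Cy5 and 7 (0.556%) in Cy3. Of their unflagged spots, 503 of 1022 (49.2%) were above background in Cy5 and 330 (32.3%) in Cy3. The negative control and spotting buffer spots of all arrays, flagged and unflagged together, gave 7.66% in Cy5 and 2.34% in Cy3. Those of them that were flagged gave 11 of 484 (2.27%) in Cy5 and 0 in Cy3.

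**Figure D2:**
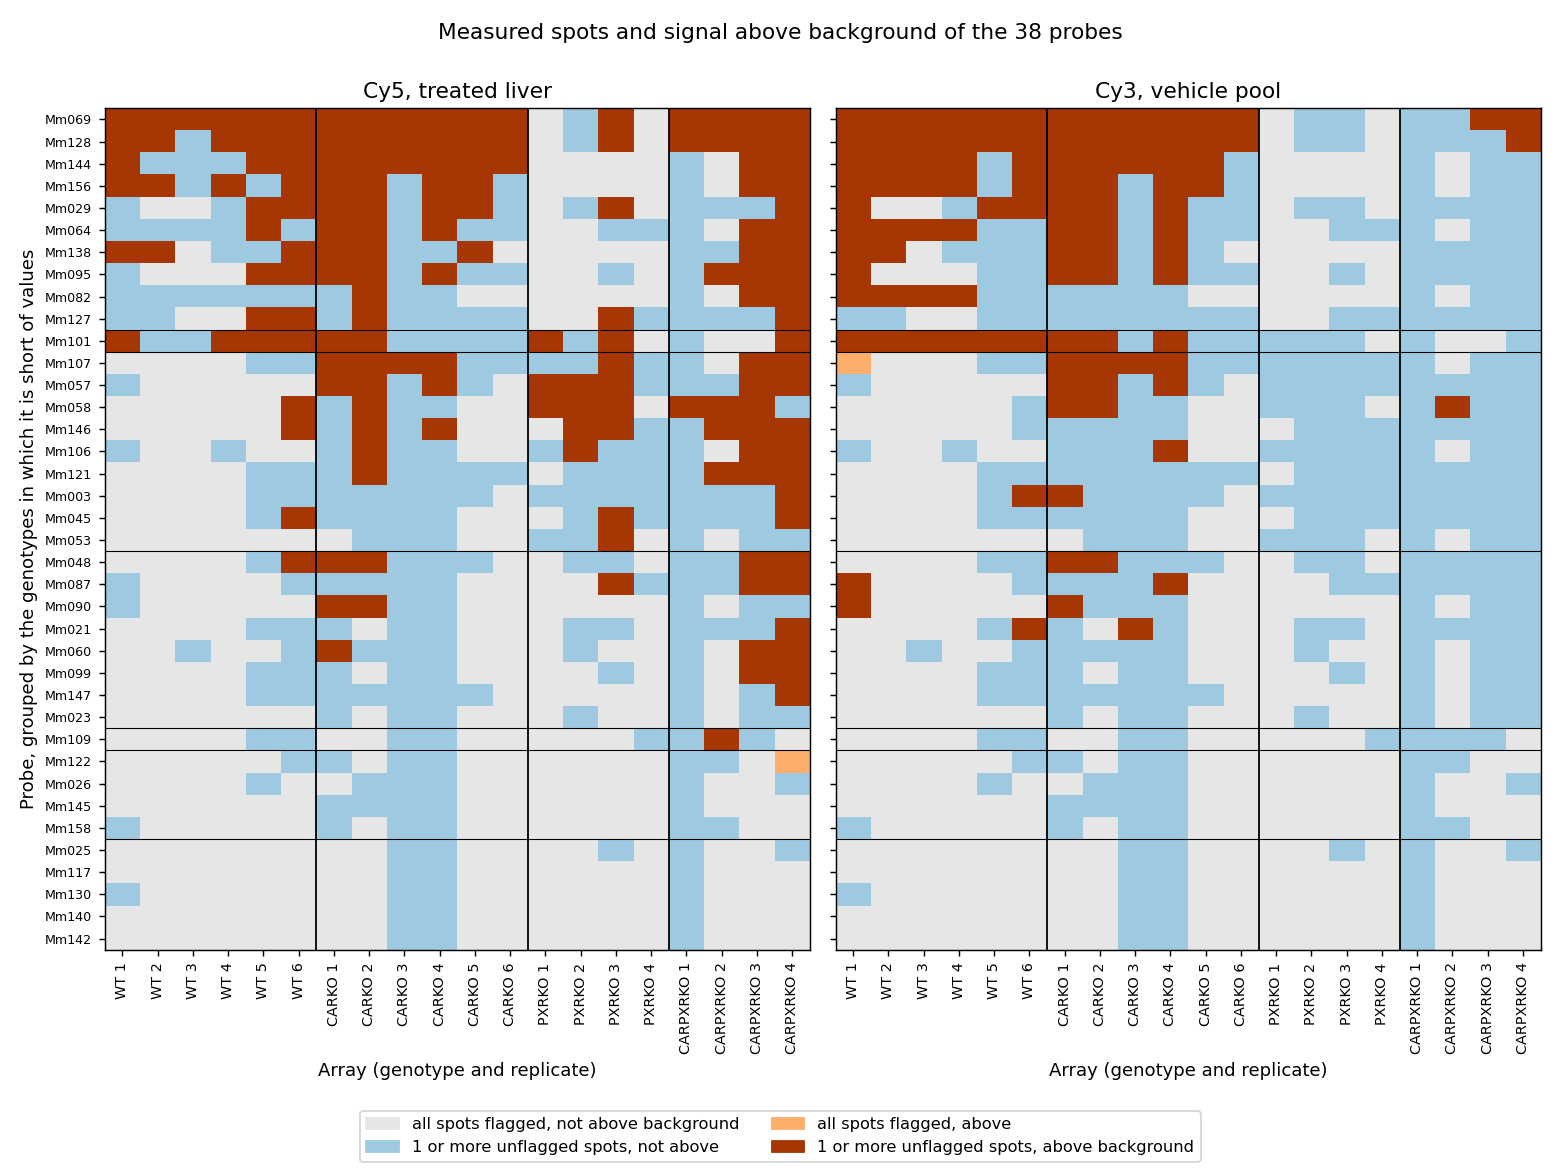
Each row is 1 of the 38 probes, grouped by the genotypes in which it had fewer than 3 measured arrays, and each column is an array, with Cy5 (treated liver) in the left panel and Cy3 (vehicle pool) in the right. Colours separate flagged from unflagged spots and signal above background from signal that was not. The dark cells of the Cy3 panel lie in WT and CARKO, with none in PXRKO and 4 in CARPXRKO.

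The 38 probes fell into classes by channel. Above background somewhere in both channels were 19 probes, and 10 were above it in Cy5 only. None was above it in Cy3 alone. Cy5 signal above background was seen in all 4 genotypes for 7 probes, and in a knockout but not in WT for 15. Of the other 82 probes, 79 were above background in Cy5 on at least 1 WT array, and 82 in each knockout genotype. The flags in WT helped to choose the 38 probes, so nothing is read from the 15. In CARPXRKO 24 probes were above background in Cy5 on at least 1 array with no Cy3 signal above background there, and in PXRKO 13 were. Over all 120 probes the shares were 28.3% and 21.7%, with 10 and 13 of the other 82 probes. In WT 5 of the 38 did so, and in CARKO 5. Since Cy3 detection in PXRKO and CARPXRKO was lower for the other probes too, nothing about treated livers is read from these counts. Never above background on any array were Mm023, Mm025, Mm026, Mm117, Mm130, Mm140, Mm142, Mm145 and Mm158, 9 probes in all.

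The first class by genotype held 10 probes that were short of values in PXRKO alone (Mm029, Mm064, Mm069, Mm082, Mm095, Mm127, Mm128, Mm138, Mm144 and Mm156). In the WT pool 9 of these 10 were above background on at least 1 array, and in the PXRKO pool none was. Mm069 was above background on 6 of 6 WT and 6 of 6 CARKO arrays in both channels. In PXRKO it was above background on 1 of 4 arrays in Cy5 and 0 of 4 in Cy3. Mm128 followed it closely, with 5 of 6 WT arrays in Cy5, 6 of 6 in Cy3 and 6 of 6 CARKO arrays in both. Mm144 and Mm156 were above background on 3 and 4 WT arrays in Cy5, on 5 each in Cy3, and on no PXRKO array in either channel. Mm082 and Mm064 were above background in the WT pool on 4 arrays each, WT 1 to 4, against 0 and 1 WT arrays in treated livers. On WT 1 to 4 the other 82 probes had a median Cy5 signal of 218 to 548 intensity units. It was 1442.5 on WT 5 and 1092.83 on WT 6. In Cy3 the median was 1252 to 1664 on WT 1 to 4, against 949.667 and 880.333. The log2 ratios of treated liver over pool in WT were 0.09 for Mm082 and −0.12 for Mm064, and neither passed (limma adjusted p = 0.526 and 0.152). Mm138 was above background in Cy5 on 3 WT, 3 CARKO and 2 CARPXRKO arrays. Mm029 and Mm095 reached 2 WT arrays each in Cy5, with 4 and 3 CARKO arrays. Mm127 was never above background in Cy3, and was above it in Cy5 on 2 WT arrays and 1 array of each knockout genotype.

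Mm101 was the single probe short of values in CARPXRKO alone. It was above background in Cy3 on 6 of 6 WT and 3 of 6 CARKO arrays and on none of the PXRKO or CARPXRKO arrays. In Cy5 it was above background on 4 WT, 2 CARKO, 2 PXRKO and 1 CARPXRKO arrays.

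The next class held 9 probes short of values in WT alone (Mm003, Mm045, Mm053, Mm057, Mm058, Mm106, Mm107, Mm121 and Mm146). In treated livers 3 of these were above background on any WT array, 6 on any CARKO array, 7 on any PXRKO array and 8 on any CARPXRKO array. The other 82 probes gave 79, 82, 82 and 82. Flags in WT chose these 9 probes, so nothing is read from the order of the counts. The median Cy5 signal of the 38 probes over local background was −11.5 to 12 intensity units on WT 1 to 4. It was 94.5 on WT 5 and 93 on WT 6. Mm057 and Mm058 each reached 3 of 4 PXRKO arrays in Cy5, against 0 and 1 of 6 WT arrays. Mm057 was also above background on 3 CARKO arrays in each channel and on 2 CARPXRKO arrays in Cy5. Mm107 was above background on 4 of 6 CARKO arrays in each channel, and Mm146 on 3 of 4 CARPXRKO arrays in Cy5 and never in Cy3. Mm106 was above background in Cy5 on 1 CARKO, 1 PXRKO and 2 CARPXRKO arrays, and in Cy3 on 1 CARKO array. Mm121 reached 1 CARKO and 3 CARPXRKO arrays in Cy5 and none in Cy3. Mm003 and Mm045 were above background on 3 arrays each, counting both channels, and Mm053 on a single PXRKO array in Cy5.

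The remaining 18 probes were short of values in at least 2 genotypes. Both WT and PXRKO were short for 8 of them (Mm021, Mm023, Mm048, Mm060, Mm087, Mm090, Mm099 and Mm147), and 6 of these 8 were above background in Cy5 on at least 1 CARPXRKO array. In CARPXRKO livers the Cy5 signal was above background on 2 of 4 arrays for Mm048, Mm060, Mm087 and Mm099 and on 1 for Mm021 and Mm147. Mm090 was above background on 2 CARKO arrays in Cy5, and in Cy3 on 1 WT and 1 CARKO array. Mm048 had 2 CARKO arrays in each channel, while Mm021 and Mm087 had 1 WT and 1 CARKO array in Cy3. CARPXRKO was short as well for Mm026, Mm122, Mm145 and Mm158, of which Mm122 alone was above background, on 1 CARPXRKO array in Cy5 where all of its spots were flagged. Mm109 was short in WT, CARKO and PXRKO and was above background on 1 CARPXRKO array. Mm025, Mm117, Mm130, Mm140 and Mm142 were short in all 4 genotypes and were nowhere above background.

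To set signals of an array beside those of another, each background-subtracted signal was expressed as a percent of the array's median over the other 82 mouse probes. In Cy5, Mm069 stood at 133%, 114%, 89%, 65.6%, 85.1% and 45% on WT 1 to 6, and between 72.2% and 128% in CARKO. The PXRKO arrays gave 21.2%, 20.1%, 20.6% and 16.7%. CARPXRKO gave 47.9%, 64.4%, 109% and 72.3%. All 4 PXRKO values thus lay below every array of the other genotypes. In Cy3 the PXRKO arrays gave 18.5% to 23.4%, below CARPXRKO at 30.8% to 51.2%, WT at 87.2% to 162% and CARKO at 112% to 138%.

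Mm128 was also lowest in PXRKO in both channels. In Cy5 it stood at 34.6% to 64.6% in WT (median 57.5%), 53.2% to 96.7% in CARKO and 52.7% to 64.7% in CARPXRKO, against 18.9%, 23.9%, 24.3% and 16.6% on the PXRKO arrays. In Cy3 PXRKO had 11.3% to 21%, CARPXRKO 24% to 42%, WT 76.7% to 91.4% and CARKO 67.6% to 91%. The neighbours WT and CARKO overlapped in both channels, and the other steps in Cy3 did not overlap. Mm069 and Mm128 were the 2 of the 10 probes short in PXRKO alone whose PXRKO signal lay below every other array in both channels. Over all 120 mouse probes the share that did so was 1.67% in Cy5 and 5% in Cy3. The flags that chose these probes go with low signal, so nothing is read from this count.

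Mm144 and Mm156 were lower in PXRKO with some overlap. In Cy5 Mm144 stood at 6.35% to 16.1% in PXRKO, against 13.6% to 51.7% for WT, 19.3% to 56.8% for CARKO and 12.2% to 32.8% for CARPXRKO. Its Cy3 signal was 6.49% to 7.95% in PXRKO, 30.3% to 48.7% in WT and 29.3% to 37.5% in CARKO, while CARPXRKO ranged from −16.8% to 25.3%. Mm156 varied widely among WT arrays, from 10.8% to 95.9% in Cy5 and from 18.7% to 98.4% in Cy3, although the Cy3 channel of all 6 held the same pool. WT 5 and WT 6 lay apart from WT 1 to 4. On WT 1 to 4 it stood at 54% to 95.9% in Cy5 and 40.2% to 98.4% in Cy3. WT 5 had 10.8% and 18.7%, and WT 6 had 16.4% and 31.2%. A split in Cy3 was not particular to Mm156, and its direction varied by probe. Mm069 stood at 132% to 162% on WT 1 to 4, against 87.2% on WT 5 and 88.3% on WT 6. Mm003 went the other way, at −6.26% to −0.461% against 24.6% and 20.7%. So did Mm021, at −2.33% to 2.24% against 22.1% and 17.7%. The log2 ratios of Mm003 and Mm021 in WT come from WT 5 and WT 6 only. The cause of these splits was not tested. The PXRKO values of Mm156 were 3.08% to 7.82% in Cy5 and 0.78% to 5.67% in Cy3.

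Mm101 was instead highest in WT and was chosen for this description after its values were seen. In WT its Cy5 signal was 27.7% to 83.8% (median 41.4%), against 7.75% to 19.4% for CARKO, 9.59% to 26.1% for PXRKO and 11.9% to 18.3% for CARPXRKO. The WT pool gave 48% to 69.2% in Cy3, against 10.2% to 16.1% for CARKO, 15.1% to 26% for PXRKO and −4.32% to 16.5% for CARPXRKO. Every WT array lay above every knockout array in both channels, and the 3 knockout genotypes overlapped in Cy5. Over all 120 probes the share with WT above every other array was 0.833% in Cy5 and 2.5% in Cy3. The log2 ratio of treated liver over pool was 0.10 ± 0.25 in WT (SD, n = 6) and 0.05 ± 0.18 in CARKO (n = 6), so treated liver and pool stood close to each other in both genotypes, within the spread between arrays.

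**Figure D3:**
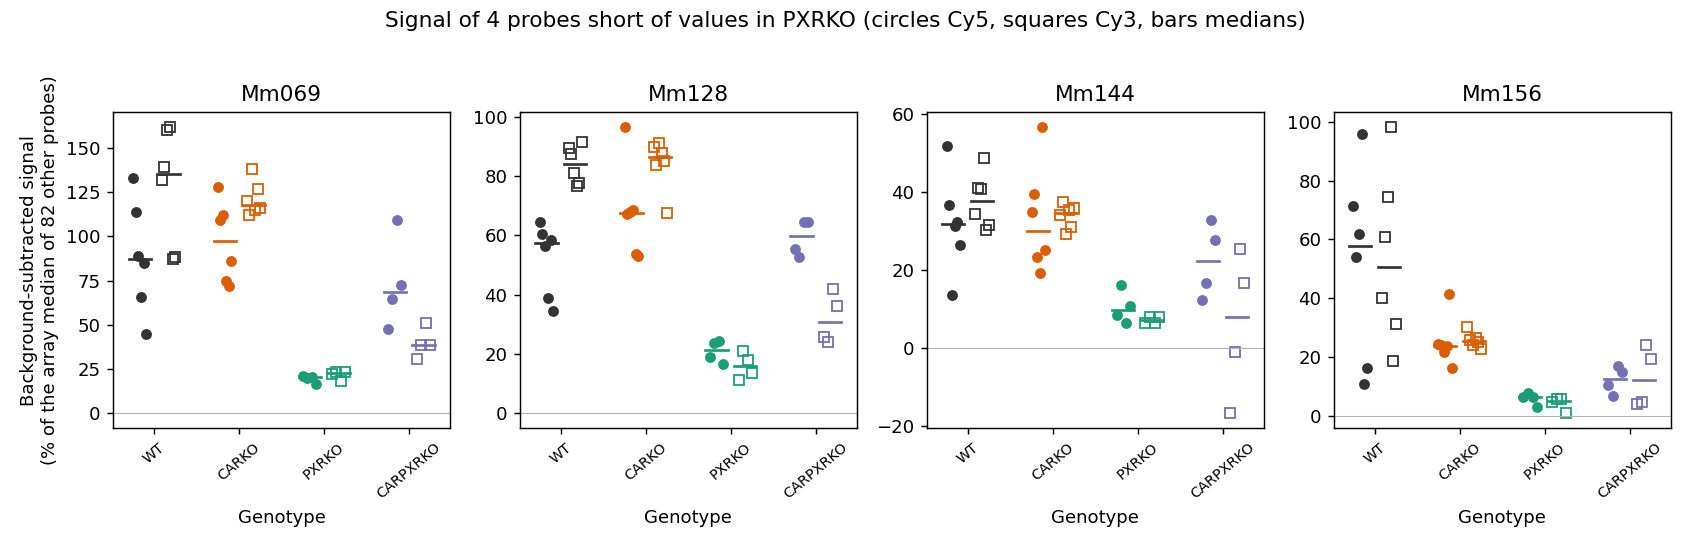
Background-subtracted signal of Mm069, Mm128, Mm144 and Mm156 on each array, as a percent of the array's median over the 82 other mouse probes (y axis), by genotype (x axis). Filled circles are Cy5 (treated liver), open squares Cy3 (vehicle pool) and bars the medians. PXRKO lies at 16.7% to 21.2% for Mm069 in Cy5, below every other array.

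The question of the design, which responses to TCPOBOP depend on CAR or PXR, was asked of the 38 probes through log2 ratios of treated liver over pool, from unflagged spots, after background correction and loess normalization within each array. A probe was tested in a genotype, or between genotypes, only where at least 3 arrays of each had a value. The fit and the adjustment of p-values by Benjamini-Hochberg ran over all mouse probes so measured. Because the filter passes a probe through the genotypes where it is seen, counts over the tested probes are not counts over the 38. The ratio was not used in choosing the probes, but it comes from the same spots as the flags.

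In WT, 11 of the 38 probes could be tested and 27 could not. Of the 11, 3 rose and 0 fell (limma, adjusted p under 0.05), where 37.6% of all 93 probes tested passed (24.7% higher and 12.9% lower). The median log2 ratio was 0.10 over the 11 and −0.02 over all tested. Mm138 rose most. Its log2 ratios were 0.83, 1.23, 1.44, 0.79 and 1.16 on WT 1, 2, 4, 5 and 6, and WT 3 gave none. All 5 arrays were above 0, with a mean of 1.09 ± 0.28 (SD, n = 5, limma adjusted p = 1.95e-05). Its Cy5 signal was above background on WT 1, WT 2 and WT 6 and its Cy3 signal on WT 1 and WT 2, so the ratio is measured in both channels on 2 of the arrays.

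Mm127 had log2 ratios of 0.73, 0.86, 0.42 and 0.50 on WT 1, 2, 5 and 6, with no value on WT 3 and WT 4. The mean was 0.63 ± 0.20 (SD, n = 4, limma adjusted p = 0.0298), above 0 on 4 of 4 arrays. No WT array showed its pool signal above background. The Cy5 signal was above background on WT 5 and WT 6 and not on WT 1 or WT 2, so no fold is given and the size depends on the background correction. Plain background subtraction gave 2.25 and keeping flagged spots 0.29. The call ended without WT 1, WT 2 or WT 6 (adjusted p = 0.0847, 0.108 and 0.0531), and also with arrays centred on calibration controls (0.62, adjusted p = 0.167). Without WT 1 the number of WT probes passing the test was 1.

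In CARKO, where 32 of the 38 probes could be tested, 0 passed the threshold in limma and 1 had an unadjusted p under 0.05. Over all 114 probes tested 3.51% passed. Without CARKO 5 the number was 1. The median log2 ratio was 0.02 over the 32 probes and 0.01 over all tested. Mm138 had −0.07, −0.03, −0.14, −0.30 and 0.62 on CARKO 1 to 5, with a mean of 0.02 ± 0.36 (SD, n = 5). The array that stood high, CARKO 5, still lay below every WT array.

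In PXRKO, 10 of the 38 could be tested. None passed the threshold in limma, 1 had an unadjusted p under 0.05, and 15.2% of all 92 probes tested passed. That probe was Mm003, whose mean was −0.42 ± 0.21 (SD, n = 4), below 0 on 4 of 4 arrays (limma adjusted p = 0.0526). It was singled out after its value was seen, and its signal was not above background on any PXRKO array in either channel, so its ratios describe normalized intensities near background. In PXRKO 1 probe passed when WT 1, WT 3, WT 5, WT 6, CARKO 5, PXRKO 2 or CARPXRKO 2 was left out. The means of Mm003 in the other genotypes were −0.46 (n = 2) in WT, −0.38 (n = 5) in CARKO and −0.28 (n = 4) in CARPXRKO.

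Whether the response of Mm138 belonged to WT was tested as a difference between genotypes. The difference of CARKO from WT was −1.07 (SE 0.19, limma adjusted p = 0.000788), and that of CARPXRKO from WT was −0.94 (SE 0.20, adjusted p = 0.00193). CARPXRKO had −0.08, 0.11, 0.60 and −0.04 on its 4 arrays, a mean of 0.15 ± 0.31 (SD, n = 4). The 5 WT values overlapped with no value of CARKO or CARPXRKO. In PXRKO no array gave an unflagged spot of Mm138, so its response there was not measured. Its Cy5 signal there was 45 to 153 intensity units over local background, below the limit for background on all 4 arrays, and its Cy3 signal 28 to 69.

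With plain background subtraction in place of normexp the WT response of Mm138 was 1.95 and the difference of CARKO from WT −1.94. The WT response stayed past the threshold when any 1 array was left out (0.9999 to 1.16). In the authors' deposited table the WT response was 0.764 over 3 WT arrays (adjusted p = 0.0784), and the difference of CARKO from WT was −1.01 (adjusted p = 0.227). That difference was −0.61 (adjusted p = 0.11) when arrays were centred on the calibration control spots, where the median over all probes was 0.67. Replicates of odd number lay at an upper slide position and those of even number at a lower one. At the upper position, chosen for examination after the data were seen, the WT response was 0.81 and the difference of CARKO from WT −0.67 (adjusted p = 0.0774 and 0.343). At the lower position they were 1.27 and −1.44 (adjusted p = 5.22e-05 and 0.000737).

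The probes whose log2 ratios over arrays were most like those of Mm138 were Mm039, with a Pearson correlation of 0.86 over 13 arrays, Mm038 with 0.85 over 13 and Mm050 with 0.81 over 14. Spearman's rho was 0.67, 0.75 and 0.79. The likeness was taken among 100 probes that shared at least 10 arrays with it. Arrays of a genotype share a pool, so this is a description only.

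In CARPXRKO, 28 of the 38 probes could be tested, and 9 passed, 7 of them higher and 2 lower in treated livers (limma, adjusted p under 0.05). Over all 110 probes tested 24.5% passed (16.4% higher and 8.18% lower). The median log2 ratio was 0.04 over the 28 and 0.02 over all. Mm121 had 0.32, 1.09, 0.34 and 0.76 on the 4 arrays, a mean of 0.63 ± 0.37 (SD, n = 4, adjusted p = 0.00328). Its Cy5 signal was above background on 3 of the 4 arrays. Mm144 had 0.99, 0.23 and 0.42 on CARPXRKO 1, 3 and 4, a mean of 0.55 ± 0.39 (SD, n = 3, adjusted p = 0.0311), and its Cy5 signal was above background on 2. Both were above 0 on every array with a value.

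The 2 lower probes were Mm021 and Mm029. Mm021 had −0.61, −0.72, −0.24 and −0.04, a mean of −0.40 (SE 0.12, n = 4, limma adjusted p = 0.0248). Its means in the other genotypes were −0.38 (n = 2) in WT, −0.24 (n = 3) in CARKO and −0.40 (n = 2) in PXRKO. The difference of CARPXRKO from CARKO was −0.17 (limma adjusted p = 0.601), so a fall particular to CARPXRKO was not shown. Mm029 had −0.51, −0.07, −0.53 and −0.32, a mean of −0.36 (SE 0.085, n = 4, limma adjusted p = 0.00697). Each was below 0 on 4 of 4 arrays, and each was above background on 1 of 4 arrays in Cy5.

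The CARPXRKO pool showed none of these 4 probes above background, so the pool has only a bound there. Each bound was under 1, so no fold can be given, and the ratios describe normalized intensities near background. For Mm021 and Mm029 the bound was of Cy5 over Cy3, opposite to their fall, so it sets no limit on that fall. Before normalization their Cy5 signal over local background lay above their Cy3 signal on all 4 CARPXRKO arrays. The median signal of the other mouse probes did so too. The falls of Mm021 and Mm029 were thus seen in normalized ratios and not in the signals before normalization. The number passing was 4 without CARPXRKO 1 and 5 without CARPXRKO 3, and 3 without the 3 arrays that had no flagged spot. The call of Mm021 ended without CARPXRKO 1 or CARPXRKO 2 (adjusted p = 0.109 and 0.118). With arrays centred on calibration controls, 0 were higher and 7 lower, Mm121 stood at 0.05 (adjusted p = 0.901) and Mm144 turned to −0.12, and the median of all probes was −0.35, to which Mm144 stood at 0.23. Centred on the median, 1 was higher and 1 lower, and none of the 4 named probes passed (adjusted p = 0.0933 for Mm121, 0.224 for Mm144, 0.0524 for Mm021 and 0.057 for Mm029). Plain background subtraction ended the call of Mm021 as well (adjusted p = 0.0568), and so did leaving out the 3 arrays with no flagged spot for Mm021 and Mm029 (adjusted p = 0.183 and 0.0682).

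**Figure D4:**
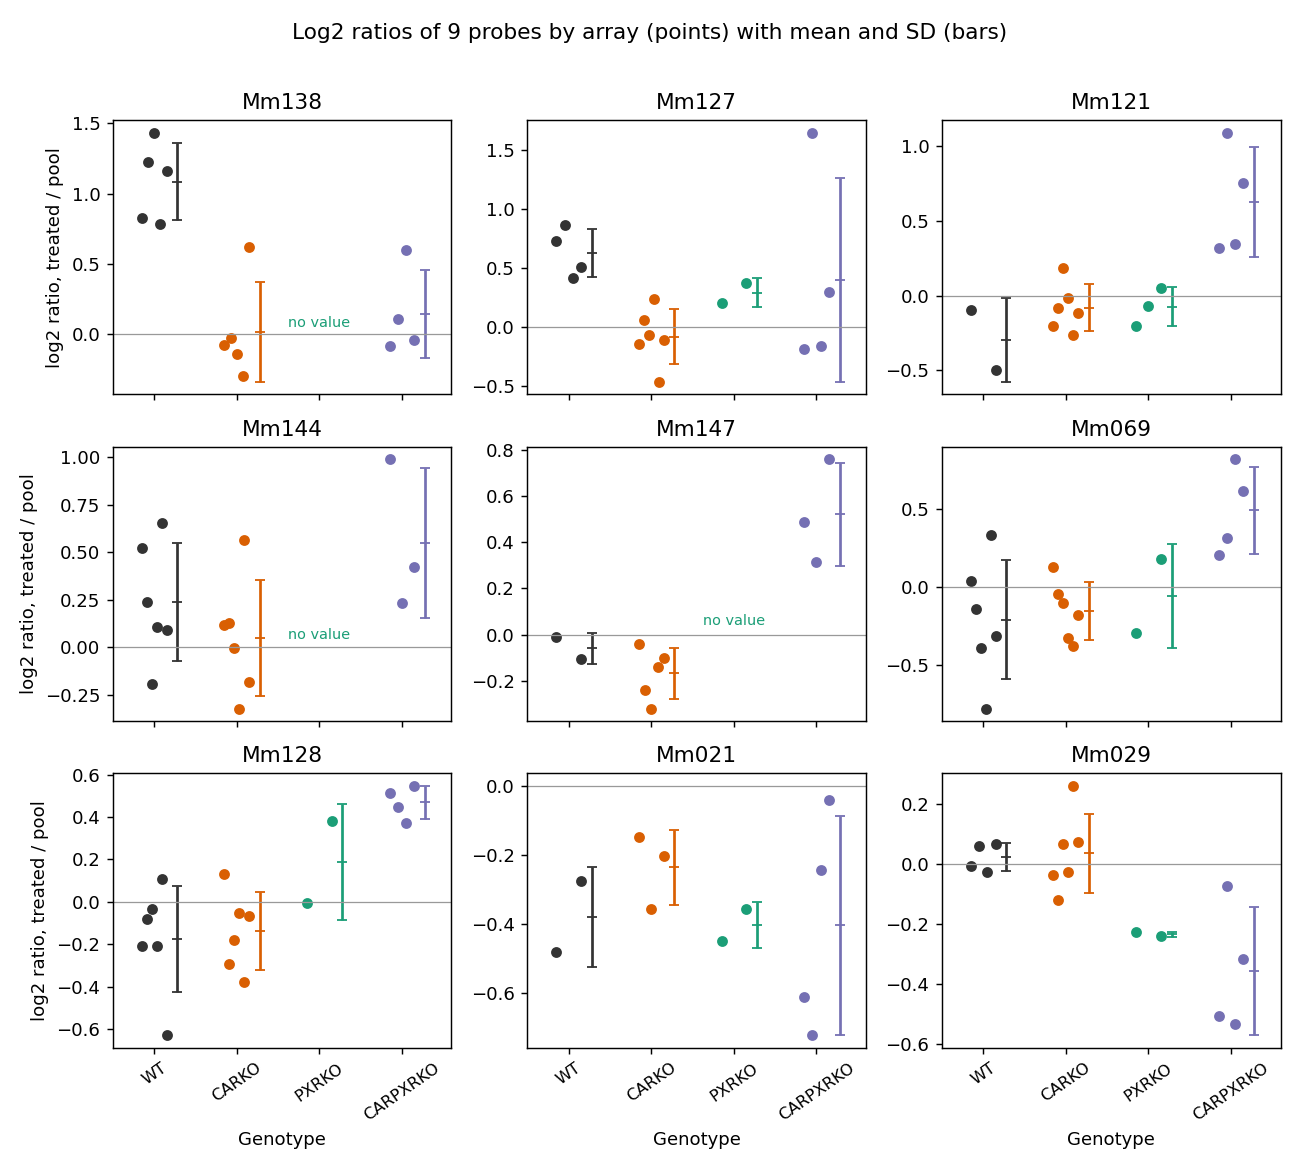
Log2 ratios of treated liver over vehicle pool for 9 probes (y axis), by genotype (x axis). Points are arrays, and the horizontal tick and vertical bar give mean and SD. The WT points of Mm138 lie between 0.79 and 1.44, above every CARKO and CARPXRKO point, and the CARPXRKO points of Mm121 and Mm147 lie above those of the other genotypes, an order of means that turns when arrays are centred on calibration controls.

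Between genotypes, 11 probes could be compared for CARKO against WT, and Mm138 was the 1 that passed, lower in CARKO, beside 17.2% of all 93 tested (10.8% lower). For PXRKO against WT a single probe of the 38 could be compared, and for PXRKO against CARKO 10 could. None passed in limma in either, and none had an unadjusted p under 0.05. Over all probes 3.61% and 8.7% passed. The log2 ratios did not overlap between CARKO and WT for 3 of the 11 probes, where the share over all probes was 10.8%. For PXRKO against WT and against CARKO the counts were 0 of 1 and 0 of 10, beside 7.23% and 6.52%.

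Against WT, CARPXRKO differed for 4 of 10 probes tested, 2 higher and 2 lower (limma, adjusted p under 0.05), beside 30.4% of all 92 (12% higher and 18.5% lower). Mm069 had 0.21, 0.31, 0.82 and 0.62 on the CARPXRKO arrays. In WT it ranged from −0.78 to 0.33 with a median of −0.23. The groups overlapped on WT 5 and the difference was 0.70 (SE 0.19, adjusted p = 0.0063). Mm128 had 0.51, 0.45, 0.37 and 0.55 in CARPXRKO and −0.63 to 0.11 in WT (median −0.14), with no overlap. The difference was 0.65 (SE 0.14, adjusted p = 0.00144).

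In CARKO, Mm069 stood at −0.38 to 0.12 and Mm128 at −0.38 to 0.13, close to WT. In PXRKO each had 2 values, −0.29 and 0.18 for Mm069 and −0.01 and 0.38 for Mm128, and neither could be tested. With calibration centring the differences of CARPXRKO from WT were 0.77 and 0.75 and no longer passed (limma adjusted p = 0.333 and 0.259), nor did they in the authors' deposited table (0.64 and 0.49, adjusted p = 0.361 and 0.378). Both were above background in Cy5 on 4 of 4 CARPXRKO arrays, and in Cy3 on 2 for Mm069 and 1 for Mm128. As percent of the array median given above, their Cy5 signal in CARPXRKO overlapped with WT and with CARKO. Their Cy3 signal in CARPXRKO lay below both, so the higher ratio goes with a lower pool signal. Mm029 had −0.01, 0.06, −0.03 and 0.06 on WT 1, 4, 5 and 6, and its difference of CARPXRKO from WT was −0.38 (SE 0.12, limma adjusted p = 0.0231). That call ended without WT 4, WT 6, CARPXRKO 1 or CARPXRKO 3 (adjusted p up to 0.0765), with calibration centring (−0.90, adjusted p = 0.0754) and without the 3 arrays that had no flagged spot (−0.33, adjusted p = 0.091). The log2 ratios of CARPXRKO and WT did not overlap for 3 of 10 probes, beside 31.5% over all.

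Against CARKO, CARPXRKO differed for 5 of 27 probes tested, 4 higher and 1 lower (limma, adjusted p under 0.05), beside 21.1% of all 109 (12.8% higher and 8.26% lower). Mm121 had −0.26 to 0.19 over 6 CARKO arrays (median −0.10), below all 4 CARPXRKO arrays. The difference was 0.71 (SE 0.16, adjusted p = 0.00582). Mm147 had −0.04, −0.24, −0.32, −0.14 and −0.10 on CARKO 1 to 5, against 0.49, 0.32 and 0.76 on CARPXRKO 1, 3 and 4, with no overlap. The difference was 0.69 (SE 0.14, limma adjusted p = 0.00582). Mm147 was above background on a single array of the 20, CARPXRKO 4, in Cy5. The lower probe was Mm029, at −0.39 (SE 0.11, adjusted p = 0.0176), and that call ended without CARPXRKO 1 or CARPXRKO 3 (adjusted p = 0.0584 and 0.0595).

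The number passing against CARKO was 3 without CARPXRKO 1, CARPXRKO 3 or CARPXRKO 4. Under calibration centring 0 were higher and 6 lower, while all probes had a median of −0.59. There Mm121 stood at −0.0862 and Mm147 at −0.20. Relative to that median they stood at 0.50 and 0.39. Median centring ended the calls of Mm121, Mm147 and Mm029 (adjusted p = 0.126, 0.212 and 0.175), and plain background subtraction that of Mm121 (adjusted p = 0.0664). Leaving out the 3 arrays with no flagged spot ended that of Mm029 (−0.35, adjusted p = 0.142). The ratios of CARPXRKO and CARKO did not overlap for 7 of 27 probes, beside 19.3% over all.

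Against PXRKO, 9 probes could be tested and Mm121 was the 1 that passed (limma), beside 26.4% of all 91 (13.2% higher). It had −0.20, −0.07 and 0.05 on PXRKO 2 to 4, below all CARPXRKO arrays, and the difference was 0.70 (SE 0.19, adjusted p = 0.0122). Without PXRKO 2, PXRKO 3 or PXRKO 4 it has fewer than 3 values and was not tested, and then 0 passed. Under calibration centring the difference was −0.0689, where the median of all probes was −0.68. Plain background subtraction ended the call (1.07, adjusted p = 0.0876). The ratios did not overlap for 1 of 9, beside 28.6% over all. In WT, Mm121 had 2 values, −0.10 and −0.49, and could not be compared.

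All 38 probes could be tested once flagged spots were kept, which fills the missing arrays with signals mostly not above background. The number passing was then 4 in WT (32.5% of all 120), 0 in CARKO (3.33%), 2 in PXRKO (15.8%) and 16 in CARPXRKO (29.2%). None of the CARKO responses passed in limma, where 6 had an unadjusted p under 0.05. The 16 CARPXRKO probes were 9 higher and 7 lower, beside 16.7% and 12.5% of all. For CARPXRKO against WT, CARKO and PXRKO the numbers were 14 (33.3% of all), 10 (23.3%) and 5 (23.3%). They were 1 for CARKO against WT (15%), 2 for PXRKO against WT (5%) and 0 for PXRKO against CARKO (8.33%), where limma gave 2 an unadjusted p under 0.05. Mm138 had 0.94 ± 0.25 in WT (SD, n = 6), −0.01 ± 0.33 in CARKO (n = 6), 0.02 ± 0.14 in PXRKO (n = 4) and 0.04 ± 0.28 in CARPXRKO (n = 4). Its difference of PXRKO from WT was then −0.92 (limma adjusted p = 0.00176), taken over PXRKO spots that were all flagged and not above background in either channel. A response in PXRKO was therefore not measured.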

How the data were processed

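RNA of TCPOBOP-treated livers was measured on 20 dual-colour arrays, each against the vehicle pool of its genotype, and samples were grouped and numbered by their titles. Per the file headers, the deposited scanner tables give, for every spot and channel, median intensity of foreground and local background, the SD of the background, and the saturated pixels in percent. The flags are deposited as a score per spot, negative where flagged, by a rule not given in the sources used here. Log2 ratios per probe make up the authors' deposited value table. Its scale and its direction, treated over pool, were taken from correlations of 0.699 to 0.986 with the scanner ratios, its centring stays unknown, and its column medians ran from −1.015 (WT 2) to 0.652 (WT 5). It served as an alternative.

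Intensities were corrected with normexp (offset 50) and log2 ratios by global loess on each array (weight 0 for controls and flagged spots) in limma 3.58.1 (R 4.3.3). Flagged spots were left out and the spots of a probe averaged. A mean per genotype was fitted to all 20 arrays (lmFit, eBayes, 3.72 prior degrees of freedom). Missing values were not imputed. The Benjamini-Hochberg adjustment of p-values ran over all mouse probes with at least 3 values per genotype, with a threshold of 0.05. Bounds, from single channels after loess and Aquantile normalization, gave no fold that is printed. The script was tested on simulated data.

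The probes, the tests and the alternatives were chosen with earlier results of these data known. At most 2 probes higher and 2 lower are named per comparison, those with the largest change past the threshold. Mm069 and Mm128 for CARPXRKO against CARKO are named beyond this in the closing list. The probes of the signal plots were picked after seeing values. The labels number the treated livers as replicates and do not say that they came from separate animals, so p-values measure the spread between these samples. The protocol text of WT 3, WT 5, CARKO 3 and CARPXRKO 3 describes vehicle for the treated channel, and the pool of CARPXRKO 3 is labelled PXR-deficient in 1 field and deficient in both receptors in another. Without these arrays, only numbers of probes passing are given below, for WT, CARPXRKO and CARPXRKO against CARKO. No value of a single probe is given without all of them. The number of arrays limits the precision.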

Additional observations from a re-analysis of the deposited data

Results flagged for a closer look

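Differences between genotypes in the response to TCPOBOP that passed the limma test of the difference itself were listed for a closer look. Mm138 responded less in CARKO than in WT (−1.07 on the log2 scale) and less in CARPXRKO than in WT (−0.94). Its difference of CARKO from WT did not pass with calibration centring, in the authors' deposited table or at the upper slide position. The log2 ratio of treated liver over pool was higher in CARPXRKO than in WT for Mm069 (0.70) and Mm128 (0.65). It was lower for Mm029 (−0.38). For Mm069 and Mm128 the scaled Cy5 signal of CARPXRKO overlapped with WT and CARKO, while its Cy3 signal lay below both. The calls of Mm069 and Mm128 against WT ended with calibration centring and in the authors' deposited table. Against CARKO, CARPXRKO was higher for Mm121 (0.71) and Mm147 (0.69) and lower for Mm029 (−0.39). Also higher than in CARKO were Mm069 (0.64) and Mm128 (0.61), which passed as well (limma adjusted p = 0.0184 and 0.00582). Against PXRKO it was higher for Mm121 (0.70). The directions of Mm121 and Mm147 turn with calibration centring, and median centring ends the calls of Mm121, Mm147 and Mm029 against CARKO. The CARPXRKO pool was not above background for Mm121, Mm147 or Mm029, and Mm147 was above background on 1 of the 20 arrays, so these values rest on signal near background. Each comparison rests on 1 pool per genotype, and an error of a pool cannot be told apart from the genotype. Of 21 groups of 4 or more arrays examined, none held an array far enough from the others to be listed. No signal outside the main measurement was listed.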

How the results depend on the processing

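Numbers are probes of the 38 that passed, beside the reported 3 (WT), 0 (CARKO), 0 (PXRKO) and 9 (CARPXRKO) for responses. Shares over all mouse probes are given above for flagged spots kept, and are not given for the other alternatives. A change in number here is therefore not read as particular to the 38 probes. With flagged spots kept they were 2 for PXRKO, 16 for CARPXRKO, 2 for PXRKO against WT, and 14, 10 and 5 for CARPXRKO against WT, CARKO and PXRKO. With dim spots left out they were 2 for CARPXRKO, and 2, 1 and 0 for it against WT, CARKO and PXRKO. Median centring gave 2 for PXRKO, 2 for CARPXRKO, 1 for CARPXRKO against CARKO and 2 for it against PXRKO. Calibration centring gave 1 for WT, 0 for CARKO against WT and 1 for CARPXRKO against WT (0 higher and 1 lower), and it turned Mm144 in CARPXRKO to −0.12, Mm121 against CARKO to −0.0862 and against PXRKO to −0.0689, and Mm147 against CARKO to −0.20. Plain background subtraction gave 1 for PXRKO, 2 for CARKO against WT and 0 for CARPXRKO against PXRKO. The authors' table gave 1 for PXRKO, 2 for CARPXRKO (0 higher and 2 lower), 2 lower for WT, and 0 for CARKO against WT and for CARPXRKO against WT, CARKO and PXRKO, with 1 to 10 probes tested in each of these 4. At least 2 arrays gave 1 for PXRKO, and fitting the genotypes compared alone gave 3 for CARKO against WT. Position as a block left each of the 10 numbers within 1.5 times. Without the 4 arrays with conflicting protocol text the numbers were 1 for WT, 3 for CARPXRKO and 3 for CARPXRKO against CARKO. The cause of these changes was not tested.

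Slide positions and arrays with no flagged spot were examined after seeing the data. Without the 3 arrays with no flagged spot, 3 passed in CARPXRKO and 1 for it against CARKO. The upper slide position gave 0 for WT, CARPXRKO, CARKO against WT, and CARPXRKO against each genotype; the lower gave 1 for WT, 1 for CARPXRKO and 1 for it against CARKO. With the replicate block 4 passed in CARPXRKO. Whether the numbers pair the arrays cannot be told. Of 26 same-numbered pairs, 11 correlated over 0.1 (−0.50 to 0.31), and differently numbered pairs were not set beside them.

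Leaving out 1 array gave 1 to 3 for WT, 0 to 1 for CARKO, 0 to 1 for PXRKO, 4 to 10 for CARPXRKO, 1 to 2 for CARKO against WT, and 3 to 5, 3 to 6 and 0 to 2 for CARPXRKO against WT, CARKO and PXRKO. Probes above background on most arrays ranged from 6 to 10 (Cy5) and 5 to 11 (Cy3) in CARKO, 2 to 4 (Cy5) in PXRKO, and 6 to 18 (Cy5) and 0 to 1 (Cy3) in CARPXRKO, where 4 and 6 arrays make a majority harder to reach than 3 and 5. With 1 background SD they were 20 and 16 in CARKO (Cy5 and Cy3), 12 and 1 in PXRKO and 18 and 4 in CARPXRKO. With 3 SDs they were 3 and 2 in CARKO, 2 in WT, 1 in PXRKO and 2 in CARPXRKO (Cy5 for the last 3). Any 1 spot gave 12 and 9 in CARKO, 7 in PXRKO (Cy5), and 10 and 1 in CARPXRKO. Counting flagged spots as not above gave 1 in PXRKO (Cy5). Fewer than 2 arrays as the limit takes 24 probes. Each single-probe result was also followed through the alternatives, and counts once for every alternative. Of these combinations of result and alternative, 121 kept direction and side of the threshold, 59 lost the threshold and 4 reversed. Arrays left out singly are not counted here.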

Other observations

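On PXRKO 4, Mm087 had 1 unflagged spot, and it was saturated in both channels, at a foreground of 65535 with 86% (Cy5) and 84% (Cy3) of its pixels saturated. The other 2 spots of the probe on that array were flagged, with Cy5 foregrounds of 198 and 116 and Cy3 foregrounds of 286 and 256.

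The authors' deposited table holds 270 values for the 38 probes, against 420 from unflagged spots. At least 3 values per genotype were there for 10 of the probes in WT, 28 in CARKO, 4 in PXRKO and 4 in CARPXRKO, and none had 3 in every genotype, while 68 of the other 82 did.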
